A study of Mus musculus with 24 samples.

Results

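Mice fed at opposite ends of the day were compared gene by gene: does the daily rhythm of a skin transcript move with the meal, with the light, or with the skin clock between them. EN mice had food from ZT12 to ZT16 and ED mice from ZT0 to ZT4, ZT0 being lights on, so that their meals lay 12 h apart under the same light cycle. All 8 EN and all 8 ED libraries were used, 16 of the 24 libraries of the series; the other 8, from mice fed at midday, entered only the estimate of the spread. Each group held 1 library at each of 8 times from ZT0 to ZT28, 4 h apart. All mice of both groups were wild type C57BL/6NCrl males of about 8 weeks, housed on regular chow with free water and lights on for 12 h and off for 12 h a day. Restricted feeding lasted 18 to 21 days, and whole back skin in telogen, the resting phase of the hair cycle, was taken after shaving. Each library was made with a stranded total RNA kit from the pooled RNA of 2 to 4 animals, so differences between single mice are not seen here. The sources used here do not say if pools of different times held separate mice, and a p-value here measures only how these pools scatter about a 24 h cosine.

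The circadian clock is a feedback loop in which BMAL1 (encoded by Arntl) and CLOCK or NPAS2 drive the Per, Cry and Nr1d genes, whose products then hold BMAL1 and its own gene back. Light sets the master clock of the brain, while feeding time is a strong time cue for clocks of the liver and other organs. Independently of the clock, eating raises insulin and amino acids, with fat and glycogen synthesis and protein folding in the endoplasmic reticulum (ER), and fasting raises fatty acid use. Skin is also known for a daily rhythm in the division of its keratinocytes.

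Total exon counts were 13751005 to 26316851 per EN library (median 16141316) and 13222667 to 21123206 per ED library (median 17650140.5). One library of each group stood apart in hair genes. The summed level of 7 hair shaft and growing follicle genes was 2680 CPM (exon read counts scaled to a common library size) in the EN library at ZT0 and 912 CPM in the ED library at ZT24. In the other 7 libraries of each group that sum was 16.8 to 37.1 CPM in EN skin and 18.1 to 68.5 CPM in ED skin. Markers of basal keratinocytes, which define skin, summed to 6980 to 8640 CPM in EN libraries and 7050 to 8840 CPM in ED libraries, and none of the marker lists was at 0. Skeletal muscle markers varied most among the abundant lists, with 8900 to 21500 CPM in EN skin and 7100 to 21300 CPM in ED skin. In whole skin, fewer cells of a type and less RNA per cell cannot be told apart. A library code in the labels took almost separate values in EN and ED, so that code and feeding time cannot be told apart.

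A cosine of 24 h period was fitted to each of 15719 genes in each group, and the 2 rhythms were compared in 3 ways with edgeR's quasi-likelihood test at an adjusted p of 0.05. The first test asked whether the EN rhythm differed from the ED rhythm in timing or size, the second whether it departed from an exact mirror image (a 12 h shift at equal amplitude), and the third whether it departed from the ED rhythm moved 3 h earlier. The rhythm differed in 63 genes, 0.401% of those tested (1829 at an unadjusted p under 0.05). It departed from a 12 h shift in 211 genes (1.34%, 2131 unadjusted) and from a 3 h advance in 19 genes (0.121%, 1444 unadjusted). A rhythm was called in 166 genes in EN skin (1.06%) and in 113 genes in ED skin (0.719%), and in 273 genes (1.74%) when both groups were tested together. The mean level over the day differed in 0 genes (0%), with 961 at an unadjusted p under 0.05, while DESeq2 called 6. Differences thus passed edgeR's test in the rhythm and not in the daily mean.

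The shift of a gene is its fitted peak time in EN skin minus that in ED skin, so that a negative shift means earlier in EN skin. Of the 63 genes with a different rhythm, 42 were about 12 h apart (9 h or more), 11 peaked about 3 h earlier in EN skin (4.5 to 1.5 h), 10 lay between these classes and 0 were within 1.5 h. A rhythm was called in EN and again in ED in 16 of the 63, in EN only in 20, in ED only in 12 and in neither alone in 15. Among the 42, 3 had a rhythm called in EN and again in ED. In the others, a fitted peak in EN, in ED or in each belongs to a rhythm not called, and the call can rest on size as well as timing. Among all 15719 genes, most with no rhythm, 25% had a fitted shift of 9 h or more, 15.2% a shift of about 3 h earlier and 12.9% a shift within 1.5 h. In all 42 genes of the first class the 95% interval of the shift held 12 h, and in 0 of them did it hold 3 h earlier. All 11 genes of the second class departed from a 12 h shift, and 0 of them departed from a 3 h advance. The classes were cut from the same fitted shifts, so these counts follow largely from the choice of class and are no separate evidence. A gene with a shift near 0 can pass the first test only by its amplitude, so these classes describe the genes that passed it. Among the 273 rhythmic genes, 49 (17.9%) were about 12 h apart, 82 about 3 h earlier, 54 (19.8%) within 1.5 h and 88 (32.2%) between the classes.

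These counts moved with single libraries. The rhythm differed in 33 genes without the EN library at ZT16 and in 36 without the EN library at ZT12. The count departing from a 12 h shift was 111 without the EN library at ZT12 and 106 without the ED library at ZT12, and that departing from a 3 h advance was 8 without EN ZT16, 11 without EN ZT20, 12 without ED ZT16 and 9 without ED ZT20. Rhythms called in EN skin numbered 43 without EN ZT12, 83 without EN ZT16, 89 without EN ZT0 and 101 without EN ZT24; those in ED skin numbered 25 without ED ZT12 and 41 to 75 without ED ZT4, ZT8, ZT16, ZT20 or ZT24. Of the 63 genes, 20 passed in each of 16 fits that left out 1 EN or ED library, and 17 passed in under 8 of them. Without both hair-rich libraries 57 genes differed, 45 of them among the 63. DESeq2 called 272 genes, a fit of the 16 libraries alone 130, and a fit without the second day (ZT24 and ZT28) 20.

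**Figure D1:**
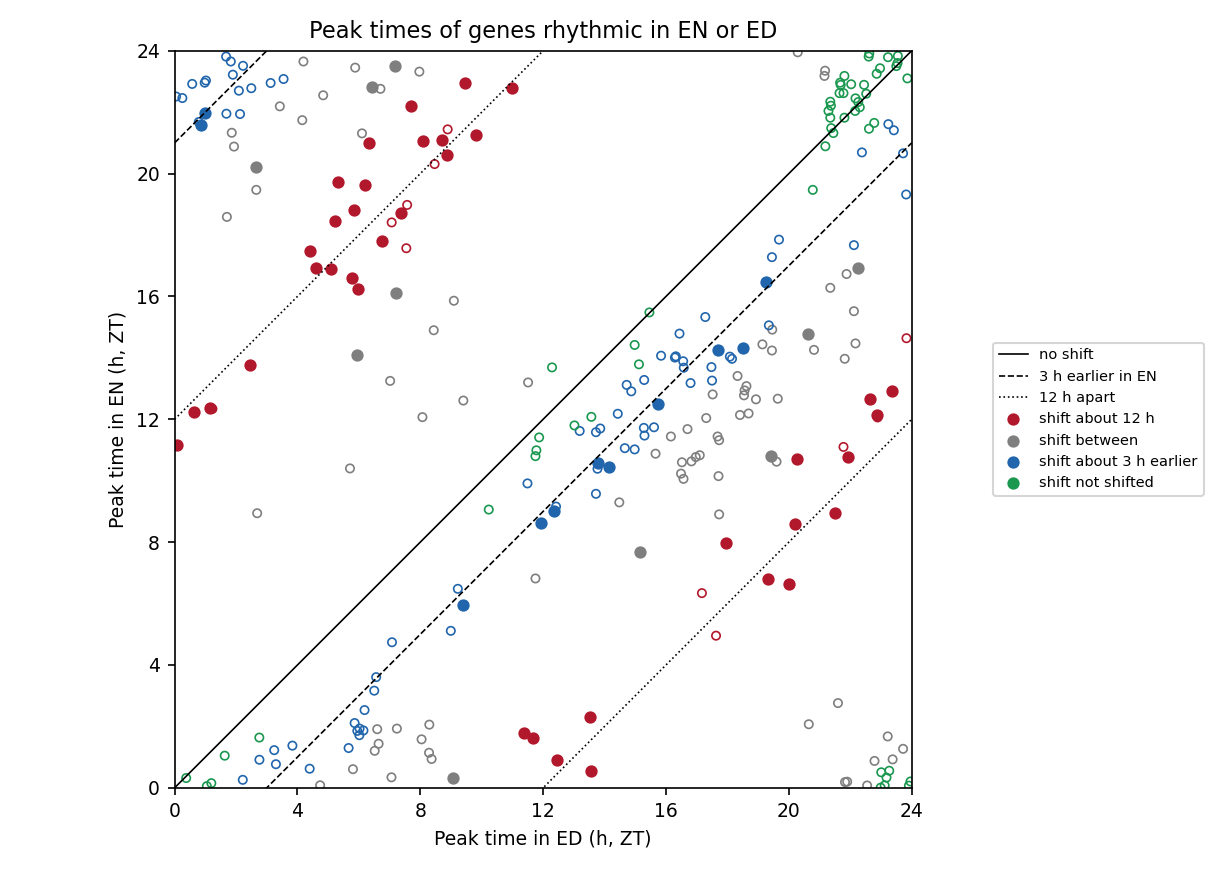
Fitted peak time (ZT, hours) in EN skin (y axis) against ED skin (x axis) for the 273 genes rhythmic when EN and ED were tested together, coloured by class of shift, with filled points where the rhythm differed at an adjusted p of 0.05 and lines at no shift, 3 h earlier and 12 h apart. Of the 273 genes, 49 lie about 12 h apart, 82 about 3 h earlier, 88 between and 54 within 1.5 h of no shift, and the last are all open.

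Of the core clock and its output genes, those whose rhythm differed peaked about 3 h earlier in EN skin. Of 21 tested, the rhythm of 10 differed between EN and ED, against 0.401% of all genes. From a 12 h shift 19 departed, against 1.34% of all genes, and 16 had a shift of about 3 h earlier, against 15.2%. The mean shift of all 21 on the clock face was -3.77 h, and that of the 11 with a rhythm called in EN and again in ED was -3.34 h, with single shifts of -4.20 to -2.77 h. Earlier results of these data on this and the other lists were known, so their directions are no independent evidence.

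Dbp, the clock output factor of the PAR bZIP family (chr7:45705088-45710203, plus strand, mm10), had 5.73, 47.7, 146, 70.2, 14.9, 5.796, 4.57 and 38.2 CPM in the EN libraries at ZT0 to ZT28, against 8.01, 10.98, 60.05, 98.2, 47.4, 17.2, 11.6 and 11.4 CPM in the ED libraries at the same times. EN skin was high at ZT8 and low from ZT16 to ZT24, while ED skin was highest at ZT12, and the ranges overlapped. Its amplitude, the height of the fitted peak above the daily mean on the log2 CPM scale, was 2.60 ± 0.18 in EN skin and 1.75 ± 0.17 in ED skin, and it peaked at ZT9.02 ± 0.241 h in EN skin and at ZT12.4 ± 0.382 h in ED skin. The shift was -3.34 ± 0.452 h, which differed from none (adjusted p = 6.1e-05) and from 12 h (adjusted p = 9e-11) but was not told from 3 h earlier (adjusted p = 0.199).

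Nr1d1, the nuclear receptor REV-ERB alpha that represses Arntl (chr11:98767932-98775333, minus strand), had 29.4, 121, 84.7, 29.4, 8.12, 6.72, 29.5 and 81.9 CPM in the EN libraries at ZT0 to ZT28, against 13.3, 44.6, 74.2, 66.97, 37.4, 10.8, 16.7 and 44.3 CPM in the ED libraries at the same times. The EN libraries were highest at ZT4 and the ED libraries at ZT8, and the ranges overlapped. Its peak lay at ZT5.96 ± 0.238 h in EN skin and at ZT9.38 ± 0.339 h in ED skin, a shift of -3.43 ± 0.414 h (adjusted p of the difference = 3.18e-05).

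Arntl itself (chr7:113207465-113314126, plus strand) had 57.5, 32.9, 11.3, 17.8, 43.02, 60.96, 61.1 and 39.5 CPM in the EN libraries at ZT0 to ZT28, against 59.1, 59.9, 29.6, 16, 23.5, 50.2, 51.5 and 57.5 CPM in the ED libraries at the same times. Its low point fell at ZT8 in EN skin and at ZT12 in ED skin, at the times when Dbp was highest. The shift was -3.27 ± 0.701 h (adjusted p = 0.0343), a call kept in 5 of 16 fits with 1 library left out. Its partner Npas2 shifted by -3.003 ± 0.565 h (adjusted p = 0.0289).

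Among the repressors, Cry1 (chr10:85131700-85185064, minus strand) had 13.8, 7.49, 15.1, 27.8, 46.3, 43.3, 15.4 and 7.67 CPM in the EN libraries at ZT0 to ZT28, against 26.97, 16.9, 12.8, 22.01, 28.8, 33.3, 22.8 and 20.6 CPM in the ED libraries at the same times. The libraries at ZT16 and ZT20 were the highest in EN skin and again in ED skin, and the low points were deeper in EN skin, whose range held that of ED. Cry1 shifted by -2.77 ± 0.773 h (adjusted p = 0.00408), with an amplitude of 1.33 ± 0.11 in EN skin and 0.58 ± 0.11 in ED skin. Per3, Per2, Nr1d2 and the output factor Tef were among the other calls, with shifts of -3.71, -3.24, -3.299 and -3.21 h. Per2 passed at an adjusted p of 0.0294 and did not pass without the hair-rich libraries (adjusted p = 0.12).

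The 11 clock genes without a call had shifts in the same sense. Cry2, Hlf, Nfil3, Rora, Bhlhe41 and Ciart, which stands in the table under an older symbol, lay between -4.49 h for Nfil3 and -1.58 h for Bhlhe41. Bhlhe40 had -1.17 h, Clock -4.53 h, Wee1 -5.02 h and Per1 -6.19 h, the last with an adjusted p of 0.06497. Usp2, whose isoforms are not separated here, had a fitted shift of -10.4 h with an error of 5.64 h and no called rhythm. Aldh3a1, an aldehyde dehydrogenase outside the list, was the 11th gene of the class, with -3.44 ± 0.601 h (adjusted p = 0.0215).

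Clock rhythms were also larger in EN skin. The 11 clock genes with a rhythm called in EN and again in ED all had the larger amplitude in EN skin, with a median ratio of EN to ED amplitude of 1.48. In the 24 other genes with a rhythm called in EN and again in ED, 54.2% were larger in EN and the median ratio was 1.02. Over all genes, most with no rhythm, 43.7% were larger in EN and the median ratio was 0.877. Of 35 genes with a rhythm called in EN and again in ED, 21 were about 3 h earlier, and 20 of these had the larger amplitude in EN skin (median ratio 1.41). Since the test of a different rhythm takes in size as well as timing, a clock call can rest on amplitude too. The differences in amplitude were not tested apart from timing.

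The E-box, CACGTG, is the element that BMAL1 and its partners bind. It was searched in the 250 bases before the RefSeq start of each gene (GRCm38.p6); it reads the same on both strands. It occurred in 5 of the 17 clock genes with a promoter in the table (29.4%), against 1021 of 10756 tested genes (9.49%) and 6.86% of all 27025 RefSeq promoters. The E-box was not particular to the clock list. In the other lists searched its share ran from 4.76% for mitosis to 33.3% (6 of 18) for glucocorticoid-responsive genes. The stretches around 4 of these matches are shown with the E-box in capitals.
Per1 chr11:69098773-69098798 plus strand: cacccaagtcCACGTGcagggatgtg
Tef chr15:81802536-81802561 plus strand: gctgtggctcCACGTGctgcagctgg
Cry1 chr10:85185099-85185124 minus strand: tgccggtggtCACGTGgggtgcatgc
Bhlhe41 chr6:145865558-145865583 minus strand: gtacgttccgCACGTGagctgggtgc
A match is a description of the letters and not of binding, and these 4 genes peaked between ZT9.91 for Bhlhe41 and ZT16.5 for Cry1 in EN skin. Tef and Per1 peaked close to Bhlhe41, at ZT10.6 and ZT10.8 in EN skin. Ciart, the other clock gene with a match, peaked at ZT9.16 in EN skin.

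**Figure D2:**
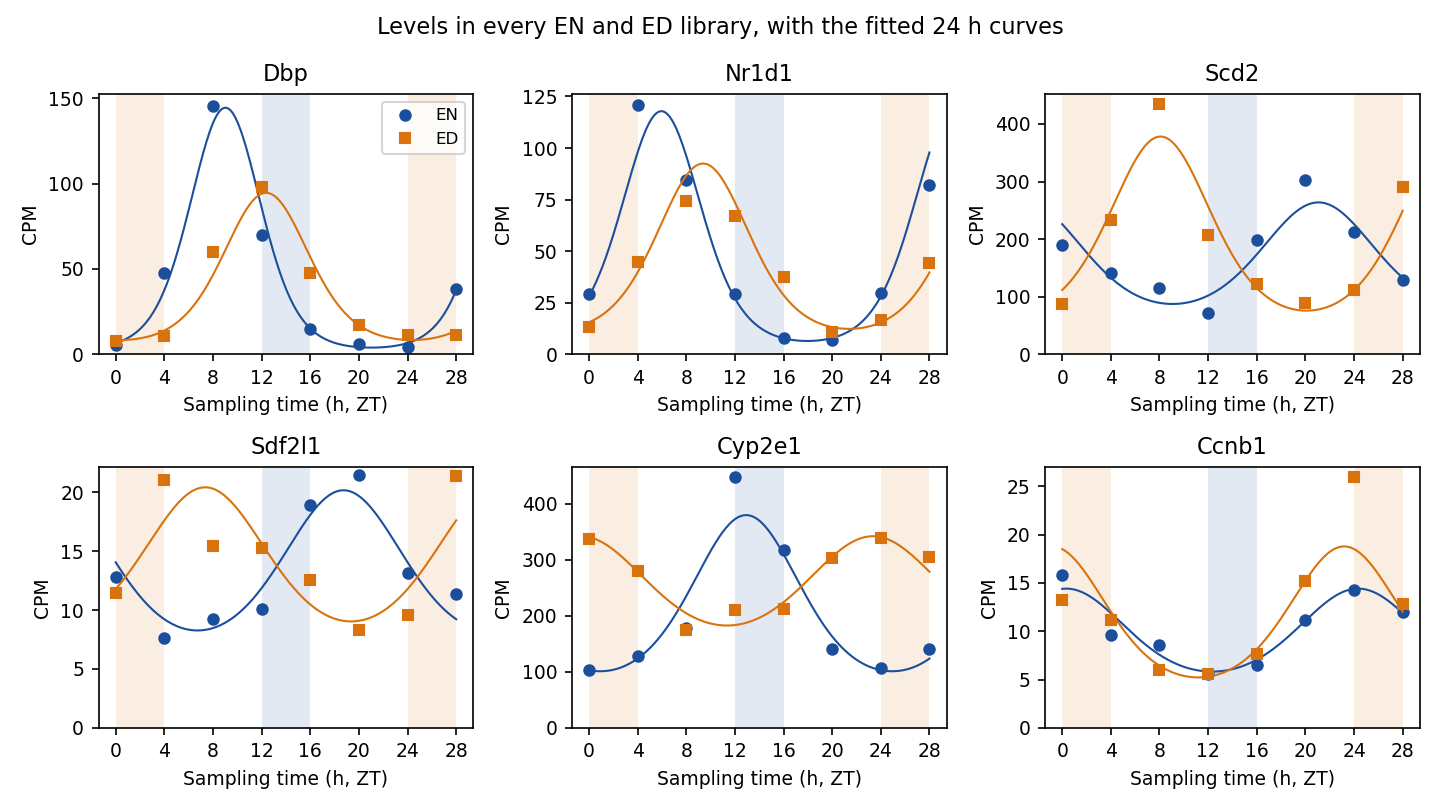
Levels (CPM) in each EN (blue) and ED (orange) library at ZT0 to ZT28 of Dbp, Nr1d1, Scd2, Sdf2l1, Cyp2e1 and Ccnb1, with the fitted 24 h curves and the food windows shaded in the colour of their group. The curves of Dbp and Nr1d1 are offset by about 3 h, those of Scd2, Sdf2l1 and Cyp2e1 peak about 12 h apart, and those of Ccnb1 run together. For Sdf2l1 and Cyp2e1 no rhythm was called in ED skin.

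Genes of fatty acid and triglyceride synthesis included several called with fitted peaks about 12 h apart. Of 25 tested, 5 differed in rhythm (Scd2, Pnpla3, Acss2, Thrsp and Acly), against 0.401% of all genes. From a 12 h shift 0 departed, against 1.34% of all genes, which does not set the list apart. Over the list the fitted peak averaged ZT16 in EN skin and ZT8.29 in ED skin, and 8 members (32%) lay 9 h or more apart, against 25% of all genes. A rhythm was called in 2 members in EN skin and 7 in ED skin.

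Scd2, a stearoyl-CoA desaturase that makes monounsaturated fatty acids (chr19:44293674-44306864, plus strand), had 189.5, 141, 115, 72.6, 198, 302, 212 and 129.6 CPM in the EN libraries at ZT0 to ZT28, against 87.3, 234, 435, 207, 122, 89.8, 112 and 290.3 CPM in the ED libraries at the same times. EN skin was highest at ZT20 and lowest at ZT12, while ED skin was highest at ZT8 and lowest at ZT0, so the group that was higher changed over the day, and the ranges overlapped. Its amplitude was 0.80 ± 0.20 in EN skin and 1.16 ± 0.20 in ED skin, and the peak fell at ZT21.1 ± 0.892 h in EN skin and at ZT8.08 ± 0.609 h in ED skin. The shift of -11.02 ± 1.08 h differed from none (adjusted p = 0.000507) and from 3 h earlier (adjusted p = 0.00533) and was not told from 12 h (adjusted p = 0.561). Counted from the opening of food, Scd2 peaked 9.07 h after food opened in EN skin and 8.08 h after in ED skin. Reads of close relatives of Scd2 may be split among them by the counting, and Mir5114, which overlaps Scd2 and was called too (adjusted p = 0.008299), cannot be told apart from it. Scd1 was not called (adjusted p = 0.694).

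Pnpla3, a lipid droplet acyltransferase and lipase raised by feeding in liver (chr15:84167837-84187236, plus strand), had 70.7, 81.3, 56.6, 73.98, 117, 109, 97.99 and 66.5 CPM in the EN libraries at ZT0 to ZT28, against 90.5, 122, 118, 93.2, 64.2, 65.6, 99.3 and 107 CPM in the ED libraries at the same times. EN skin was high at ZT16 and ZT20 and ED skin at ZT4 and ZT8, the end of each meal and 4 h after it, with overlapping ranges. The shift was -11.02 ± 1.105 h (adjusted p = 0.00277; from 12 h, 0.831). Its amplitudes, 0.44 ± 0.10 in EN skin and 0.47 ± 0.10 in ED skin, differed by less than their errors.

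Acly, which makes the cytosolic acetyl-CoA for fat synthesis, had 631, 793, 525, 523, 775, 919, 755 and 575 CPM in the EN libraries at ZT0 to ZT28, against 484, 757, 1203, 1031, 634, 461, 523 and 1015 CPM in the ED libraries at the same times. The highest library was ZT20 in EN skin and ZT8 in ED skin, and the EN range lay inside the ED range. Acly (adjusted p = 0.0223) was called in 10 of 16 fits with 1 library left out. Acss2, which makes acetyl-CoA from acetate, peaked at ZT21.3 in EN skin and ZT9.83 in ED skin (adjusted p = 0.0124). Thrsp, a lipogenic nuclear protein, had a shift of 8.896 ± 1.37 h, just under the 9 h of the class (adjusted p = 0.0123). Fasn, Acaca and Srebf1, which are central to the pathway in liver, were not called, with adjusted p of 0.572, 0.6101 and 0.368 and ED amplitudes of 0.37, 0.38 and 0.31.

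Cholesterol synthesis and uptake had no call. Of 25 genes tested 0 differed in edgeR's test, against 0.401% of all genes, 13 had an unadjusted p under 0.05, and 10 (40%) had a shift of 9 h or more, against 25% of all genes. Insig1, the sterol sensor's partner, came nearest with 11.4 h (adjusted p = 0.0558). Its amplitude was 0.12 ± 0.13 in EN skin and 0.66 ± 0.13 in ED skin, and rhythms of the list were called in 2 genes in ED skin and 0 in EN skin.

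Glycogen was represented by the 2 targeting subunits that bring protein phosphatase 1 to glycogen. Ppp1r3b (chr8:35375739-35388139, plus strand) had 9.82, 6.76, 4.34, 4.21, 34.1, 12.4, 6.86 and 5.04 CPM in the EN libraries at ZT0 to ZT28, against 10.7, 30.6, 24.1, 6.44, 5.46, 4.28, 13.4 and 55.9 CPM in the ED libraries at the same times. A single time stood out in EN skin, ZT16 at the end of the meal, and in ED skin ZT4, ZT8 and ZT28 were high, with overlapping ranges. The peak lay 6.46 h after food opened in EN skin and 5.22 h after in ED skin, and the shift was -10.8 ± 1.51 h (adjusted p = 0.00408). Ppp1r3c shifted by -9.34 ± 1.62 h (adjusted p = 0.0418), a call that was lost without the hair-rich libraries (adjusted p = 0.0917). These were the 2 calls among 25 glycogen and glucose genes, against 0.401% of all genes, and 10 (40%) of that list lay 9 h or more apart, against 25%. Hk2, the insulin-raised hexokinase, was not called at -11.2 h (adjusted p = 0.254).

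Protein folding genes of the ER had fitted peaks about 12 h apart in most cases. Of 20 tested, 4 differed in rhythm (Sdf2l1, the secreted survival factor Manf, the BiP cochaperone Dnajb11 and Creld2), against 0.401% of all genes. A shift of 9 h or more was fitted in 13 (65%), against 25% of all genes. From a 12 h shift 0 departed, against 1.34% of all genes, which does not set the list apart. Their peaks averaged ZT18.9 in EN skin and ZT6.29 in ED skin, in the dark phase in EN and the light phase in ED. A rhythm was called in 2 members in EN skin and 0 in ED skin, so most of these peaks belong to rhythms not called. The part of the rhythm that was opposite in the 2 groups had a median amplitude of 0.256 on the log2 scale, and the part in step with clock time 0.0584; over all genes each was 0.101.

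Sdf2l1, a cofactor of the chaperone BiP (chr16:17130138-17132383, minus strand), had 12.8, 7.62, 9.26, 10.1, 18.95, 21.5, 13.2 and 11.4 CPM in the EN libraries at ZT0 to ZT28, against 11.5, 21.04, 15.4, 15.3, 12.5, 8.34, 9.59 and 21.4 CPM in the ED libraries at the same times. EN skin was highest at ZT16 and ZT20 and ED skin at ZT4 and ZT28, with near-equal ranges. The shift was 11.4 ± 1.199 h (adjusted p = 0.004597), it was not told from 12 h (adjusted p = 0.9499), and the amplitudes were 0.64 ± 0.15 in EN skin and 0.59 ± 0.15 in ED skin. It was called in 16 of 16 fits with 1 library left out.

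Creld2, an ER folding factor (chr15:88819646-88826683, plus strand), had 14.7, 13.3, 16.5, 13.1, 27, 23.8, 19.8 and 16.4 CPM in the EN libraries at ZT0 to ZT28, against 17.03, 26.6, 22.5, 18.1, 16.5, 14.7, 17.2 and 34.8 CPM in the ED libraries at the same times. The high times were again ZT16 and ZT20 in EN skin and ZT4 and ZT28 in ED skin, with overlapping ranges. Its shift was -11.6 ± 1.69 h (adjusted p = 0.0434), called in 4 of 16 fits with 1 library left out. Hspa5, which encodes BiP, had 299, 233, 277, 210.2, 464, 428, 344 and 281 CPM in the EN libraries at ZT0 to ZT28, against 258, 477, 314, 277, 282, 268, 307 and 637 CPM in the ED libraries at the same times. Its libraries at ZT16 and ZT20 in EN and at ZT4 and ZT28 in ED were the highest of their groups, but the difference did not pass (adjusted p = 0.0809; shift -9.99 ± 1.895 h). Without the hair-rich libraries 3 of the 20 genes were called.

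The ER stress response element, spelled CCAAT, then 9 bases of any kind, then CCACG, is where ATF6 and NF-Y act on chaperone genes. Searched on both strands, it lay in the 250 bases before the start of 8 of the 18 ER chaperone genes with a promoter (44.4%), against 14 of 10756 tested genes (0.13%); each match holds a CCAAT box. The promoter of Creld2 is shown whole, and 4 others around the match, with the element in capitals on the gene's own strand, so that those reading CGTGG first carry it in reverse.
Creld2 chr15:88819396-88819645 plus strand: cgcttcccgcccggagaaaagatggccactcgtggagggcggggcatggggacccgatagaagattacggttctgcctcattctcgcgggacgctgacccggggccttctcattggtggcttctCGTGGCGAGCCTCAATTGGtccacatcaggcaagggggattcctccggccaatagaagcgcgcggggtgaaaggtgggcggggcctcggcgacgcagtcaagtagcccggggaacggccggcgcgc
Hspa5 chr2:34772015-34772053 plus strand: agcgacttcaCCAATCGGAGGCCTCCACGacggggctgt
Calr chr8:84847065-84847103 minus strand: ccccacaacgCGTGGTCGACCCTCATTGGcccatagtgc
Dnajc3 chr14:118937817-118937855 plus strand: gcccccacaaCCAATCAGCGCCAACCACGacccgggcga
Pdia6 chr12:17266481-17266519 plus strand: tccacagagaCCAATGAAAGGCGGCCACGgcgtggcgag
The genes of these 5 sequences peaked between ZT18.4 for Creld2 and ZT21.2 for Calr in EN skin, and between ZT5.19 for Hspa5 and ZT8.07 for Calr in ED skin. Of the 5, Creld2 passed the test of a different rhythm, and the other adjusted p lay between 0.0809 for Hspa5 and 0.1801 for Dnajc3.

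Heat shock genes had fitted peaks that averaged ZT18.2 in EN skin and ZT4.72 in ED skin. Of 20 tested, 3 differed (Hspa8 and the HSP90 cochaperones Fkbp4 and Ahsa1), against 0.401% of all genes. Of the list, 13 (65%) lay 9 h or more apart, against 25% of all genes. From a 12 h shift 0 departed, against 1.34% of all genes, which does not set the list apart. A rhythm was called in 0 members in EN skin and 1 in ED skin, so most of the fitted peaks belong to rhythms not called. Hspa8, the constitutive chaperone HSC70 (chr9:40800984-40810087, plus strand), had 1111, 951, 1070.4, 1265, 1859, 1361, 1295 and 1088 CPM in the EN libraries at ZT0 to ZT28, against 1196, 1457, 1221, 1293, 1084, 1019, 1399 and 1963 CPM in the ED libraries at the same times. Its highest library was ZT16 in EN skin and ZT28 in ED skin, followed there by ZT4, with overlapping ranges. Hspa8 (adjusted p = 0.0348) was called in 7 of 16 fits with 1 library left out, Fkbp4 and Ahsa1 in 1 of 16 each, and without the hair-rich libraries 0 of the 20 genes were called. The stress-induced Hspa1a and Hspa1b, near-identical copies whose reads cannot be told apart, had adjusted p of 0.262 and 0.409.

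**Figure D3:**
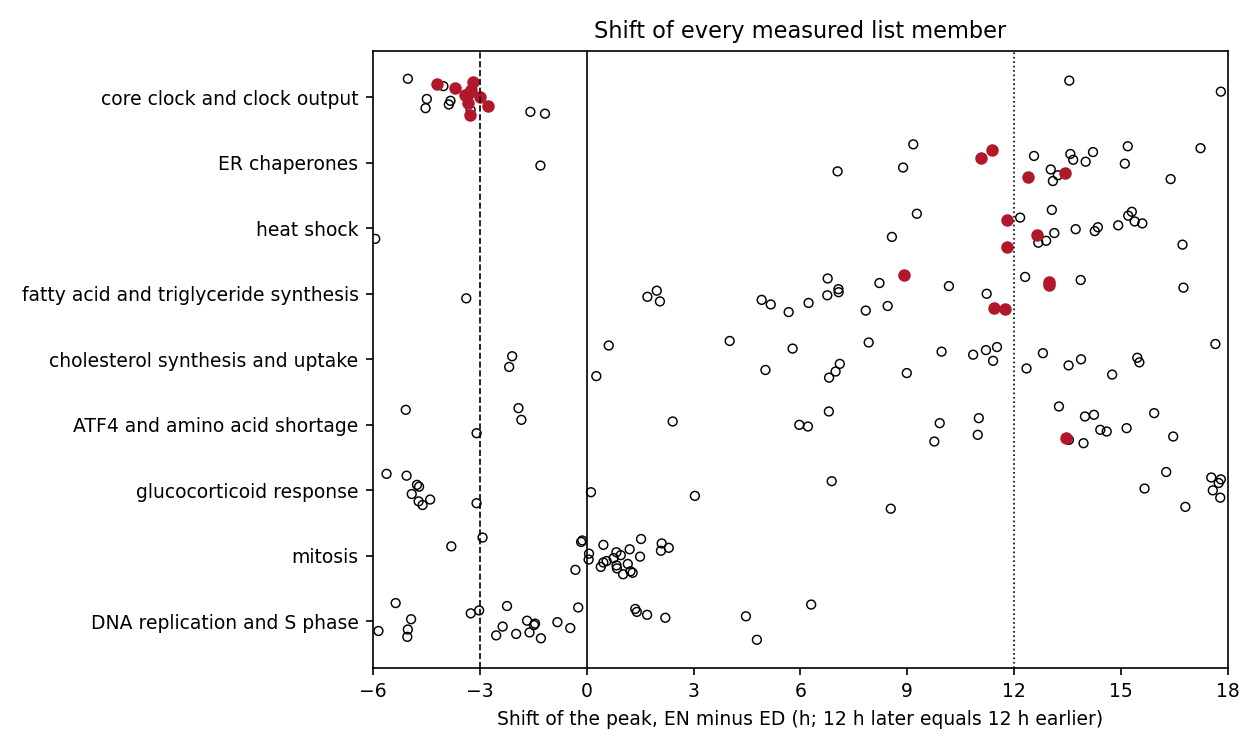
Shift of the fitted peak (EN minus ED, hours, drawn from -6 to 18 h so that 12 h apart lies inside the axis) of every tested member of 9 gene lists, in red where the rhythm differed at an adjusted p of 0.05, with lines at no shift, 3 h earlier and 12 h. Clock genes cluster near 3 h earlier (16 of 21), mitosis genes near no shift (20 of 26), and ER chaperones and heat shock genes near 12 h (13 of 20 each). Members are drawn with or without a called rhythm.

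A few genes of lipid use and of fat cells had fitted peaks about 12 h apart, at different times after food. Of 23 genes of fasting and fatty acid oxidation 2 differed, against 0.401% of all genes, and 5 lay 9 h or more apart (21.7%), against 25% of all genes. Cyp2e1, a cytochrome P450 raised by fasting in rodent liver (chr7:140763739-140774987, plus strand), had 103, 128, 178, 448, 317, 141, 107 and 140.0 CPM in the EN libraries at ZT0 to ZT28, against 337, 279, 174, 211, 212, 303, 339 and 305 CPM in the ED libraries at the same times. EN skin stood high at ZT12 and ZT16, ED skin was lowest at ZT8, and the ranges overlapped. Its amplitude was 0.96 ± 0.12 in EN skin and 0.45 ± 0.13 in ED skin. The peak fell at ZT12.9 ± 0.527 h in EN skin and at ZT23.4 ± 1.08 h in ED skin, a shift of -10.4 ± 1.21 h (adjusted p = 0.000106), with a rhythm called in EN skin (adjusted p = 1.97e-05) and not in ED skin (adjusted p = 0.121).

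Cidec, a lipid droplet protein of fat cells (chr6:113424634-113435760, minus strand), had 135, 153, 231, 374, 255, 154, 145 and 149.6 CPM in the EN libraries at ZT0 to ZT28, against 215, 195, 158, 169, 171, 173, 240.0 and 246 CPM in the ED libraries at the same times. The EN library at ZT12 was far above the others, and the ED libraries at ZT0, ZT24 and ZT28 were the highest of their group, with overlapping ranges. It shifted by 11.2 ± 1.77 h (adjusted p = 0.00277). The summed level of 7 fat cell markers, of which Cidec is one, moved with it in EN skin, with 1871, 1917, 2308, 3328, 2301, 2047, 2022 and 1906 CPM in EN libraries at ZT0 to ZT28, against 2046, 2203, 2348, 2524, 1712, 1784, 2550 and 2012 CPM in ED libraries. Its peak was ZT12.5 in EN skin and ZT6.82 in ED skin, and its part in these genes was not tested. No other member of the 14 marker lists was called.

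Cpt1a, which brings fatty acids into mitochondria (chr19:3322334-3385733, plus strand), was low after the meal, with 84.4, 102, 104, 100.5, 59.3, 58.2, 83.8 and 87.1 CPM in the EN libraries at ZT0 to ZT28, against 100.1, 49.7, 50.7, 69.9, 109, 94.3, 113 and 53.4 CPM in the ED libraries at the same times. The low libraries were ZT16 and ZT20 in EN skin and ZT4, ZT8 and ZT28 in ED skin, and the ranges overlapped. The shift was 11.5 ± 1.54 h (adjusted p = 0.0215), called in 10 of 16 fits with 1 library left out. Cpt1a and Cyp2e1 were the 2 calls of the fasting list; Pdk4, a brake on glucose oxidation, was not called (adjusted p = 0.5605).

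G0s2, an inhibitor of the lipase ATGL (chr1:193272161-193273217, minus strand), ran the other way, with 11.9, 13.3, 13.7, 17.9, 34.1, 22.7, 21.4 and 11.03 CPM in the EN libraries at ZT0 to ZT28, against 31.7, 40.6, 27.8, 17.95, 10.2, 11.1, 26.04 and 59.6 CPM in the ED libraries at the same times. It was highest at ZT16 in EN skin and at ZT28 and ZT4 in ED skin, with overlapping ranges. The shift was -11.7 ± 1.83 h (adjusted p = 0.0215), called in 11 of 16 fits with 1 library left out. Cidec and G0s2 were the 2 calls among 21 lipolysis and dermal fat genes, against 0.401% of all genes, and 9 of the 21 (42.9%) lay 9 h or more apart, against 25% of all genes. Outside the lists, Acsm5, a medium-chain acyl-CoA synthetase (chr7:119519463-119545551, plus strand), had 0.955, 1.72, 2.32, 4.97, 3.46, 1.27, 0.942 and 1.41 CPM in the EN libraries at ZT0 to ZT28, against 3.82, 2.33, 0.585, 1.014, 1.61, 2.72, 6.55 and 2.68 CPM in the ED libraries at the same times. It was highest at ZT12 in EN skin and at ZT24 in ED skin, the times of food opening, and it shifted by -10.7 ± 1.01 h (adjusted p = 0.000507).

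Scd2, Pnpla3 and Acsm5 were the 3 genes with a rhythm called in EN skin, a rhythm called in ED skin and a shift of about 12 h. Over the fits that left out 1 library, 0 to 3 genes stood in that class.

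The 42 genes about 12 h apart did not share one time relative to the meal. Counted from the opening of food and averaged over EN and ED, 4 peaked within the 4 h of the meal, 22 at 4 to 12 h, 5 at 12 to 16 h and 11 at 16 to 24 h. In 3 of the 42 a rhythm was called in EN and again in ED, so many of these peaks belong to rhythms not called. Glutathione transferase Gsta3 peaked 4.59 h after food opened in EN skin and 5.79 h after in ED skin, Acly 8.6 h after food opened in EN skin and 8.86 h after in ED skin, and the thyrotropin receptor Tshr 10.2 h after food opened in EN skin and 7.71 h after in ED skin. Later came Atf5, a factor of the amino acid response, 10.9 h after food opened in EN skin and 9.47 h after in ED skin, and Pycr1 and Aldh1l2, enzymes of proline and mitochondrial folate metabolism, with 13.6 and 12.9 h in EN skin and 11.7 and 12.5 h in ED skin. Rasd1, the leptin receptor Lepr and the fat cell gene Tusc5 peaked at 19.98, 22.7 and 20.96 h in EN skin and 17.9, 20.3 and 21.5 h in ED skin, in the hours before the next meal. Skin was sampled at the hour food opened in each group, and the sources used here do not say whether before or after it opened.

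**Figure D4:**
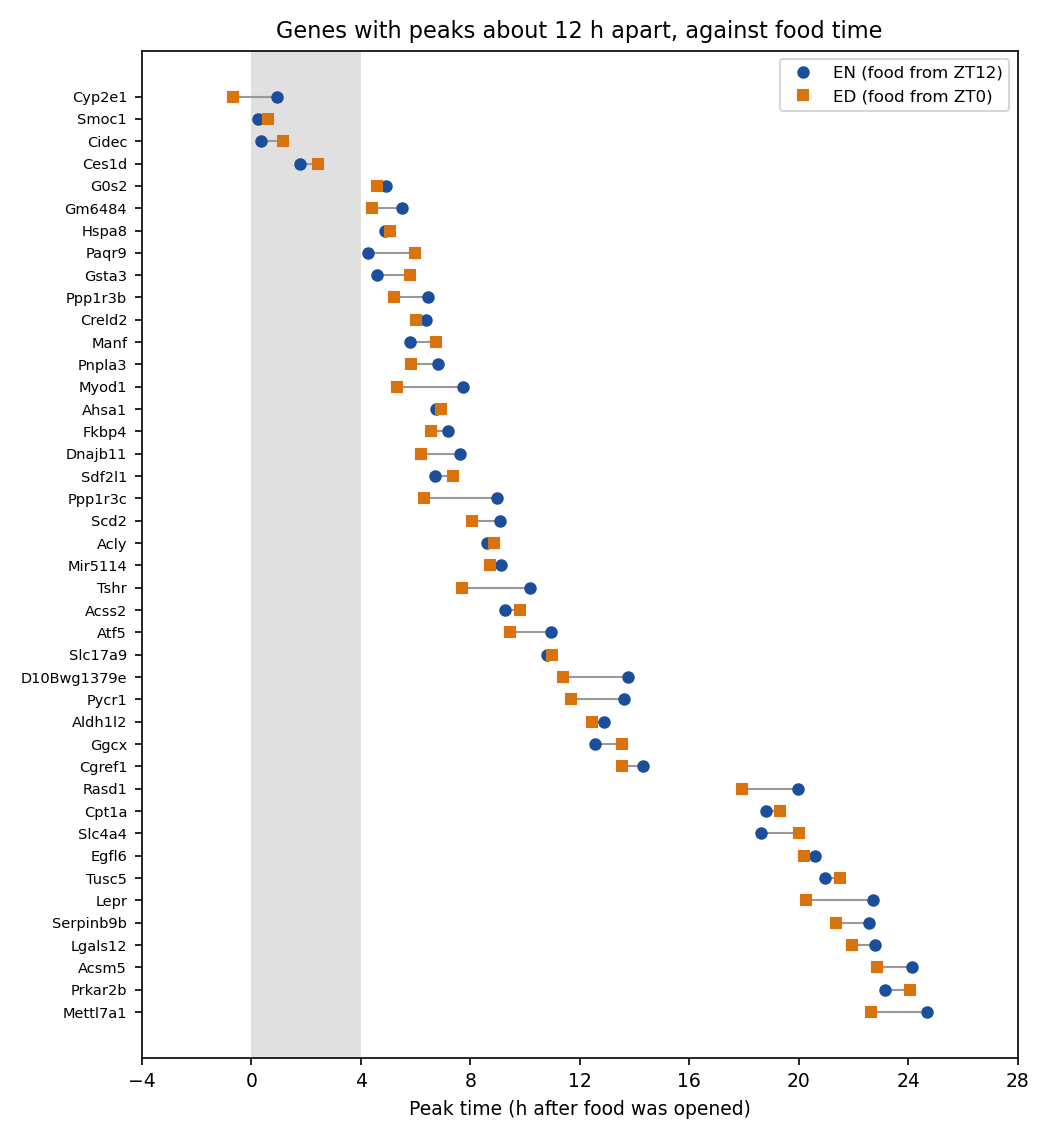
Fitted peak in hours after food opened for the 42 genes about 12 h apart, with a circle for EN and a square for ED and the 4 h meal in grey. The largest share, 22 of 42, peaked 4 to 12 h after food opened, and circle and square of a gene lie close together by the choice of the class. In 3 of the 42 a rhythm was called in EN and again in ED.

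Several of these genes stand outside the lists of fat, sugar and folding genes. Gsta3 (chr1:21240589-21265661, plus strand) had 21.8, 15.5, 14.9, 46.4, 55.1, 36.7, 28.05 and 15.2 CPM in the EN libraries at ZT0 to ZT28, against 26.5, 26.4, 32.4, 24.8, 16.7, 20.9, 23.1 and 32.1 CPM in the ED libraries at the same times. EN skin was high at ZT12 to ZT20, while ED skin stayed in a narrow band inside the EN range. Its amplitude was 0.96 ± 0.13 in EN skin and 0.39 ± 0.13 in ED skin, and the shift was 10.8 ± 1.35 h (adjusted p = 0.000686).

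Tshr (chr12:91384563-91549808, plus strand) had 10.2, 7.62, 8.68, 4.46, 8.198, 13.5, 12.8 and 7.67 CPM in the EN libraries at ZT0 to ZT28, against 5.201, 15.1, 16.9, 9.701, 6.298, 2.56, 6.47 and 9.68 CPM in the ED libraries at the same times. It was highest at ZT20 and ZT24 in EN skin and at ZT4 and ZT8 in ED skin, with overlapping ranges, and it shifted by -9.52 ± 1.42 h (adjusted p = 0.00623). Rasd1, a small G protein induced by dexamethasone (chr11:59963181-59964944, minus strand), had 3.21, 11.98, 12.9, 9.69, 3.69, 1.996, 4.24 and 7.26 CPM in the EN libraries at ZT0 to ZT28, against 5.57, 4.17, 3.46, 6.88, 6.23, 7.56, 6.78 and 1.92 CPM in the ED libraries at the same times. EN skin was high from ZT4 to ZT12, ED skin was flatter, and the ranges overlapped. The shift was -9.96 ± 1.199 h (adjusted p = 0.00235).

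Of the other rhythms called about 12 h apart, Smoc1, Tusc5 and Prkar2b, a regulatory subunit of protein kinase A, had adjusted p of 0.00277, 0.004597 and 0.00632, and the first of these passed in all 16 fits with 1 library left out, as did Tusc5. Myod1, a muscle factor, shifted by -9.59 h (adjusted p = 0.0337) in samples whose muscle marker sum varied as given above; the part of muscle content was not tested. In the ATF4 and amino acid list Atf5 was the 1 call among 23 genes (adjusted p = 0.0289), against 0.401% of all genes, 12 (52.2%) lay 9 h or more apart, against 25%, and 0 were called without the hair-rich libraries.

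The 10 genes between the classes shifted by 5 to 9 h. Ppp1r27, a phosphatase 1 subunit (chr11:120549979-120551132, minus strand), had 14.5, 13.8, 5.56, 4.97, 7.22, 18.3, 23.9 and 16.3 CPM in the EN libraries at ZT0 to ZT28, against 6.17, 10.2, 12.6, 11.1, 5.81, 3.22, 6.17 and 26.1 CPM in the ED libraries at the same times. EN skin was highest at ZT24 and ED skin at ZT28, where the value was over that of any other library, and the ranges overlapped. Its shift of -7.69 ± 1.05 h departed from none (adjusted p = 0.008299) and from 12 h (adjusted p = 0.0449). The skeletal muscle marker sum was likewise highest in ED skin at ZT28 (21279 CPM), while in EN skin it was highest at ZT4 (21524 CPM). Its fitted peaks lay at ZT1.33 in EN and ZT6.23 in ED skin, against ZT23.5 and ZT7.18 for Ppp1r27. The part of muscle content in Ppp1r27 was not tested. Klb, the coreceptor of FGF21, shifted by -7.63 ± 1.31 h (adjusted p = 0.0117) and the oxysterol receptor gene Nr1h3 by 8.14 ± 1.26 h (adjusted p = 0.0289; 0.0543 without the hair-rich libraries). Receptor genes Il31ra and Cntfr shifted by -8.61 and -5.84 h (adjusted p = 0.008299 and 0.0133).

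Mitosis genes peaked at nearly the same clock time in EN and ED skin. Of 26 tested, 0 differed between EN and ED in edgeR's test (2 at an unadjusted p under 0.05), 21 departed from a 12 h shift, against 1.34% of all genes, and 20 (76.9%) had a shift within 1.5 h, against 12.9% of all genes. The peaks averaged ZT22.9 in EN skin and ZT22.3 in ED skin, near the end of the night. Without the hair-rich libraries 15 departed from a 12 h shift and 18 were within 1.5 h. A rhythm was called in 4 genes in EN skin and 18 in ED skin, with median amplitudes of 0.406 in EN and 0.677 in ED, and the difference between groups did not pass for any of them. Without the hair-rich libraries, rhythms were called in 2 of these genes in EN skin and 9 in ED skin.

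Ccnb1, the mitotic cyclin B1 (chr13:100778650-100786570, minus strand), had 15.8, 9.65, 8.57, 5.61, 6.54, 11.2, 14.3 and 11.97 CPM in the EN libraries at ZT0 to ZT28, against 13.2, 11.1, 6.01, 5.57, 7.63, 15.2, 25.96 and 12.8 CPM in the ED libraries at the same times. The libraries of ZT12 were the lowest in EN skin and in ED skin, and the highest were ZT0 and ZT24 in EN skin and ZT20 and ZT24 in ED skin, with ED ZT24, the hair-rich library, above every other. The shift was 1.15 ± 0.899 h, which departed from 12 h (adjusted p = 2.24e-05) and not from none (adjusted p = 0.521). Cdc20, which starts anaphase (chr4:118432901-118437352, minus strand), had 16.1, 10.4, 6.83, 4.59, 7.22, 11.7, 13.7 and 11.97 CPM in the EN libraries at ZT0 to ZT28, against 10.1, 8.49, 5.85, 5.43, 6.79, 11.8, 14.7 and 11.2 CPM in the ED libraries at the same times. It was lowest at ZT12 in EN and in ED and highest at ZT0 in EN skin and ZT24 in ED skin, with overlapping ranges and a shift of 0.557 ± 0.982 h. Cenpf, a centromere protein, shifted by 0.0638 ± 1.04 h and Aspm, a spindle pole protein, by 1.02 ± 0.9401 h; the 2 departed from 12 h with adjusted p of 4.11e-05 and 1.72e-05.

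A pair of short elements recurs in such promoters, the cell cycle homology region with letters TTTGAA and the CCAAT box, each searched on both strands. TTTGAA lay in the 250 bases before 7 of 21 mitosis genes with a promoter (33.3%), against 13.0% of tested genes, and the CCAAT box in 17 of 21 (81.0%), against 39.7%. The elements were not particular to mitosis genes. The CCAAT box lay in 94.4% of ER chaperone, 94.1% of cholesterol and 43.8% of heat shock promoters. TTTGAA lay in 25.9% of those of called genes about 12 h apart and in 18.3% of all RefSeq promoters. The promoter of Cdc20 is shown because it holds both, in capitals and without overlap.
Cdc20 chr4:118437344-118437593 minus strand: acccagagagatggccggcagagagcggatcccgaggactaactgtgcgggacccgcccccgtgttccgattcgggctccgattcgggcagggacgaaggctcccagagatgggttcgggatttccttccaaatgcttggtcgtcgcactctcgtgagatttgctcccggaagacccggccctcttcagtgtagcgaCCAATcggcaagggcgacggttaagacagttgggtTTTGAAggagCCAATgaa
In capitals are TTTGAA, the element nearest the middle of the marked ones, and a CCAAT box on either side of it.

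Of 26 genes of DNA replication 0 differed, in edgeR's test and at an unadjusted p under 0.05, and 0 departed from a 12 h shift, so these data do not separate the 2 for that list. The 8 genes rhythmic in EN, rhythmic in ED and within 1.5 h of each other were Ccnb1, Cdc20, Cenpf, Aspm, Anln, Mthfd1l, Nat15 and Coq10b. A miss in the test of a difference does not show that 2 rhythms are equal: for these 8 the shifts lay between -1.49 h for Mthfd1l and 1.15 h for Ccnb1.

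Glucocorticoid-responsive genes fell in neither place. Of 21 tested 0 differed, against 0.401% of all genes, and 14 had an unadjusted p under 0.05, against 1829 of all 15719 genes. From a 12 h shift 2 departed (Per1 and Dusp1), against 1.34% of all genes, and 0 lay 9 h or more apart, against 25%. The mean shift was -5.39 h, with peaks around ZT12.4 in EN skin and ZT18 in ED skin and rhythms called in 5 genes in EN and 0 in ED. Tsc22d3, the glucocorticoid-induced leucine zipper (chrX:140539528-140600659, minus strand), had 106, 112, 180.4, 658, 312, 123, 82.6 and 93.96 CPM in the EN libraries at ZT0 to ZT28, against 414, 165, 88.7, 377, 229, 292, 214 and 91.6 CPM in the ED libraries at the same times. EN skin had 1 high time, ZT12, while ED skin was high at ZT0 and again at ZT12, a course with more than the 1 peak of a 24 h cosine, and the ranges overlapped. The shift was -5.62 ± 1.93 h (adjusted p = 0.213). In this list the opposite part and the part in step with clock time were alike, with median amplitudes of 0.347 and 0.382.

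Genes of the extracellular matrix had scattered shifts, with a list mean of 0.643 h. Of 25 tested 0 differed in edgeR's test (8 at an unadjusted p under 0.05), 6 departed from a 12 h shift, against 1.34% of all genes, and 7 had a shift of about 3 h earlier, 28% against 15.2%. Fbn1, which encodes fibrillin 1 (chr2:125300594-125507993, minus strand), had 1075, 958, 689.5, 320.5, 347, 901, 1138 and 968 CPM in the EN libraries at ZT0 to ZT28, against 967, 957, 935, 460.1, 479.7, 652, 789.6 and 965 CPM in the ED libraries at the same times. It was lowest at ZT12 and ZT16 in EN and in ED skin, and the ranges overlapped. Its shift was -2.02 ± 0.763 h, with an adjusted p of 2.41e-06 from 12 h and 0.142 from none. Spon2, a secreted matrix protein (chr5:33198184-33218455, minus strand), had 47.9, 23.1, 10.01, 3.82, 20.01, 66.1, 73.1 and 37.5 CPM in the EN libraries at ZT0 to ZT28, against 33.4, 38.8, 32.3, 5.36, 8.61, 21.4, 39.97 and 60.3 CPM in the ED libraries at the same times. It was lowest at ZT12 in EN and in ED skin and highest at ZT24 in EN skin and ZT28 in ED skin, with overlapping ranges. Its shift was -3.72 ± 1.007 h (adjusted p = 0.0524). Collagen genes Col1a1, Col1a2 and Col3a1 had no called rhythm.

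Elsewhere few calls were made. Among 26 antioxidant and glutathione genes 1, Gsta3, differed, against 0.401% of all genes, and 2 departed from a 12 h shift, against 1.34%. Nucleotide excision repair (27 genes), the p53 response (20), insulin and FOXO targets (19), interferon response (20), immediate early genes (20), ribosome biogenesis (20) and oxidative phosphorylation (22) had 0 genes with a different rhythm in edgeR's test, against 0.401% of all genes. At an unadjusted p under 0.05, which 1829 of all 15719 genes met, 4 repair genes, 4 of the p53 response, 5 insulin and FOXO targets, 2 interferon genes, 4 immediate early genes, 2 of ribosome biogenesis and 2 of oxidative phosphorylation differed.

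Each rhythm can be split into a part that is opposite in EN and ED, as the meals are, and a part in step with clock time. Of the 273 rhythmic genes, 146 (53.5%) departed from 12 h and from no other shift tested, 26 (9.52%) from no shift alone, 18 (6.59%) from no shift and 3 h, 15 (5.49%) from no shift and 12 h, 1 (0.366%) from 12 h and 3 h, and 67 (24.5%) from none of the 3. The 146 include genes in step with clock time and genes about 3 h apart that the test did not separate. Over all 15719 genes the 2 parts had equal median amplitudes of 0.101 on the log2 scale. By list, the opposite part was the larger in ER chaperones (0.256 and 0.0584), heat shock genes (0.219 and 0.0913) and fat synthesis (0.215 and 0.161), and the smaller in mitosis (0.17 and 0.584) and clock genes (0.487 and 0.727). For each gene, which part is larger follows from its shift, so the split restates the shifts and is no second finding. A shift of 3 h in a large rhythm also gives an opposite part.

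**Figure D5:**
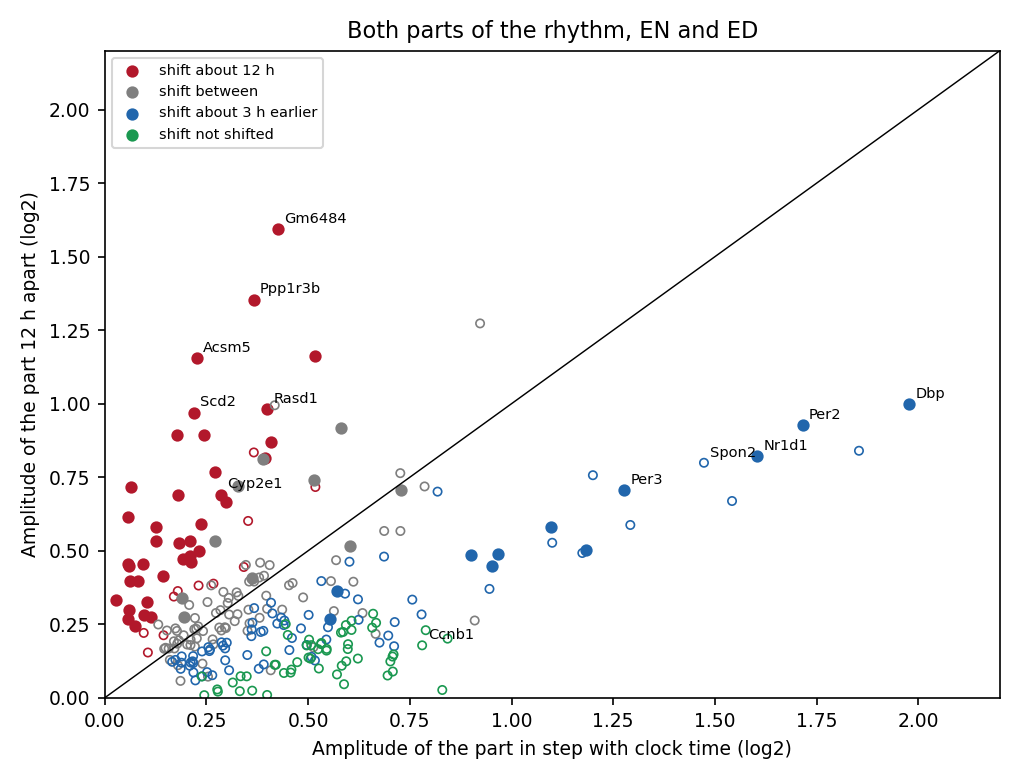
Amplitude (log2 scale) of the part of each rhythm that is opposite in EN and ED (y axis) against the part in step with clock time (x axis) for the 273 rhythmic genes, coloured by class of shift and filled where the rhythm differed. Clock genes have large values on each axis. Genes about 12 h apart lie above the diagonal and genes not shifted below it, which follows from how the parts are defined.

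Intron counts, which follow unspliced RNA, gave a second reading of the same libraries. A different rhythm was called in 23 of 14611 genes with intron rows (0.157%; 1681 unadjusted), 16 of them among the 63 exon calls. Of the 42 genes about 12 h apart 35 had intron rows, 19 of these fell in the same class and 5 were called; of the 11 genes about 3 h apart 9 kept the class and 9 were called. Tshr had the smallest p of the 12 h class, with intron peaks at ZT20.4 ± 0.437 h in EN and ZT5.505 ± 0.407 h in ED skin (adjusted p = 1.33e-06), but its intron shift of -9.14 ± 0.597 h departed from 12 h (adjusted p = 0.0212). Ppp1r3b introns shifted by -11.3 h, Pnpla3 by -11.7 h and Scd2 by -10.7 h (adjusted p = 0.00462, 0.01203 and 0.0196). Cyp2e1 introns shifted by -5.36 ± 2.55 h (adjusted p = 0.562) and Gsta3 introns by -4.71 h (adjusted p = 0.244), so for these 2 the exons were in the 12 h class and the introns were not. The exon and intron shifts were not tested against each other.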

How the data were processed

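Total RNA of whole back skin was sequenced, and per the file headers the authors deposited counts of reads per gene model in exons and in introns (31872 models of each kind) for mm10, together with a table of linear RPKM values that the authors' labelling of the table credits to cqn. Per the submitters' processing notes TopHat2, SAMtools and HOMER were used, with versions not given in the sources used here. From the deposited counts, 1 exon row was kept per symbol (29758 symbols; 2114 rows left out). Genes were filtered with filterByExpr (minimum count 10), leaving 15719, scaled by TMM and fitted with edgeR 4.0.16 in R 4.3.3 over all 24 libraries, with a mean, a cosine and a sine of 24 h per group and 15 residual degrees of freedom. Contrasts tested a difference of the EN and ED rhythms, a departure from a 12 h shift and a departure from EN being 3 h earlier; p-values were adjusted by Benjamini-Hochberg over all genes with a threshold of 0.05. Peak times, amplitudes and their standard errors came from least squares on log2 CPM (prior count 2), with the spread taken within each gene. CPM values are scaled by TMM. Depths are totals of exon counts. The replicate numbers are the order of sampling times and do not pair animals.

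Genes were named by a rule: the 20 with the smallest p, up to 8 per class of shift among genes rhythmic in EN and in ED, members of 22 gene lists that were called, and the clock list; genes not called are named as examples of a list and were chosen after their values were seen. Of 553 list genes, 542 were tested; some results that the rule would name are not reported here. Members and lists were chosen with earlier results of these data known. Promoters are 250 bases before RefSeq starts of GRCm38.p6. Alternatives were DESeq2 1.42.0, no filter on low counts, the 16 libraries alone, limma 3.58.1 on the log2 of the deposited RPKM (pseudocount 0.5), no second day, no hair-rich libraries, a replicate block and each library left out; the procedure was tested on simulated data.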

Additional observations from a re-analysis of the deposited data

Results flagged for a closer look

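Of 102 groups of 8 libraries examined, 10 held a library far from the other 7. The rate of about 1 in 20 by chance holds for values without a rhythm. The single genes examined were chosen for their rhythms, so that rate cannot judge the 10. The total exon count was 26316851 in the EN library at ZT20. Hair genes summed to 2680 CPM in the EN library at ZT0 and 912 CPM in the ED library at ZT24, and melanocyte markers to 111 CPM and 158 CPM in the same libraries. Fat cell markers summed to 3330 CPM in the EN library at ZT12. Dbp stood at 146 CPM in the EN library at ZT8, with 70.2 CPM next, and Ppp1r3b at 34.1 CPM in the EN library at ZT16, with 12.4 CPM next. In ED, Ppp1r27 stood at 26.1 CPM at ZT28, with 12.6 CPM next, and Ccnb1 at 26.0 CPM at ZT24, with 15.2 CPM next.

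The difference of the EN and ED rhythms was itself tested and passed in 63 genes. Those with the smallest p were led by Per3 (adjusted p = 2.28e-05), Nr1d1 (3.18e-05), Dbp (6.1e-05), Cyp2e1 and Nr1d2 (0.000106 each), Scd2 and Acsm5 (0.000507 each) and Gsta3 (0.000686). They went on with Rasd1 (0.00235), Smoc1, Cidec and Pnpla3 (0.00277 each), Ppp1r3b, Tef and Cry1 (0.00408 each), Tusc5 and Sdf2l1 (0.0046 each), Tshr (0.00623) and Prkar2b (0.00632).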

How the results depend on the processing

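No result reversed under any alternative run. The count of genes with a different rhythm (63) was 272 with DESeq2, 130 from the 16 EN and ED libraries alone and 20 without the second day; with 1 library left out it was 33 to 68. The departure from 12 h (211) became 471 with DESeq2 and 76 without the second day, and 106 to 232 with 1 library left out. The departure from 3 h earlier (19) became 140 with DESeq2, 62 from the 16 libraries alone, 5 without the second day and 5 without the hair-rich libraries, and 8 to 20 with 1 library left out. Rhythms in EN (166) became 348, 64 and 98 with DESeq2, without the second day and without the hair-rich libraries, and 43 to 178 with 1 library left out; those in ED (113) became 388, 24 and 61, and 25 to 129. The mean level (0) gave 6 with DESeq2 and 0 in each fit with 1 library left out. The mean shift of the 11 clock genes rhythmic in EN and in ED (-3.34 h) was -3.69 to -3.21 h with 1 library left out.

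Among genes rhythmic in EN and in ED, the class about 12 h apart (3) became 10 with DESeq2, 5 from the 16 libraries alone, 0 without the second day and 1 without the hair-rich libraries, and 0 to 3 with 1 library left out. The class between (3) became 10 at an adjusted p of 0.10, 20 with DESeq2, 10 from the 16 libraries and 8 with limma, and 0 to 4 with 1 left out. The class about 3 h earlier (21) became 33 with DESeq2 and 10 without the second day, and 9 to 23 with 1 left out. The class not shifted (8) became 14 at an adjusted p of 0.10, 18 with DESeq2, 0 without the second day and 4 without the hair-rich libraries, and 0 to 8 with 1 left out. For DESeq2 and for limma, which used the deposited RPKM, the cause was not tested. The other settings named here change the number of libraries or the threshold.

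With the replicate block, the sampling time entered as a term, 136 genes differed, 62 of them among the 63, and 0 differed in mean level. The numbers share only a time: deviations of EN and ED libraries of the same time correlated between -0.104 and 0.234, so no pairing was taken.

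With 1 pool a time and 8 times a group, a short peak between samplings would be missed, and a 24 h cosine describes pulses and double peaks poorly. Peak times of genes with small amplitudes carry errors of hours.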

Other observations

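Whole libraries were as far apart at equal clock time as at equal time after food. The median absolute log2 difference over genes was 0.19 for EN and ED libraries of the same clock time, 0.196 for those of the same hours after food opened and 0.191 for all other pairs. Libraries of the same group and clock time on the first and second day differed by 0.16 and 0.196 in EN skin and by 0.181 and 0.196 in ED skin.

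The cold-induced RNA-binding genes Cirbp and Rbm3 each had an unadjusted p under 0.05 for a different rhythm. Cirbp peaked at ZT6.32 in EN skin and ZT17.6 in ED skin, a shift of -11.3 h (adjusted p = 0.0558), and Rbm3 shifted by -6.44 h (adjusted p = 0.262).

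The element TGATGNAA, which C/EBP and ATF factors can bind, lay in the 250 bases before 6 of 20 genes of the ATF4 list with a promoter (30.0%), against 2.53% of tested genes. Of the 42 genes about 12 h apart 27 had a promoter in the table; the E-box lay in 4 (14.8%), the CCAAT box in 18 (66.7%) and the ER stress response element in 1 (3.7%), that of Creld2.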
